A study of Mus musculus with 18 samples.

Results

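Autophagy and mitophagy genes were followed in nascent RNA of developing mouse red cells. The set holds 10 genes: the mitophagy receptors Bnip3l, Bnip3 and Optn, the initiation kinases Ulk1 and Ulk2, the ATG8 proteins Map1lc3b and Gabarapl2, the processing and conjugation enzymes Atg4a and Atg7, and the transcription factor Foxo3. They were chosen by gene symbol from the 54232 gene identifiers of the deposited count table, and each of the 10 symbols matched an identifier. New RNA was labelled with the uridine analogue 4-thiouridine (4sU), which cells build in during transcription, and was then isolated and sequenced (4sU-seq).

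The cells came from fetal livers of C57BL/6 embryos at e12.5-e13.5, with no genetic change or treatment that differed between groups. After lineage-negative (Lin-) selection, cells were sorted by CD71, the transferrin receptor, and Ter119, a surface marker of maturing red cells. The groups were S0-Low (CD71-, Ter119-), S0-Medium (CD71 medium, Ter119-), S1 (CD71 high, Ter119-), S2 (CD71 high, Ter119 medium) and S3 (CD71 high, Ter119 high), which the study places from stem, progenitor and burst-forming cells to terminally differentiating cells. A further group was lineage-positive (Lin+). Each of the 6 groups had 3 replicate libraries, made from cells rested for 6 h in culture medium and then labelled with 500 µM 4sU for 45 min. The study calls its nascent RNA replicates biological, and the labels do not say whether they came from separate embryos or litters, so p-values measure the spread between these libraries.

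Autophagy encloses cytoplasm in a double membrane that fuses with the lysosome. A kinase complex built around ULK1 or ULK2 starts the process, and ATG8 proteins, which include the LC3 and GABARAP families, are cut by ATG4 proteases and joined to the membrane lipid with the help of ATG7. Receptors on the cargo bind the ATG8 proteins. In maturing red cells mitochondria are removed in this way, and the receptor NIX, the product of Bnip3l, is known to be needed for their clearance in reticulocytes.

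Library totals lay between 9452476 and 40567976 counts, and S0-Low replicate 3 was the smallest. A floor of 3 counts corresponded to between 0.0622 and 0.249 CPM (counts scaled to a common library size, here with edgeR's TMM factors over the 18 libraries), for counting error only. Replicates of a group differed beyond counting error, with a chi-square of 84.4 to 487 for each degree of freedom. The sort was visible in stage genes: Tfrc, which encodes CD71, had 365 ± 77.0 CPM in S0-Low and 6650 ± 290.1 in S3 (mean ± SD, n = 3), Alas2, the first enzyme of heme synthesis in red cells, had 4.76 ± 0.74 and 3409 ± 743, and Kit, a progenitor receptor, had 487 ± 214 and 0.87 ± 1.51. The Lin+ libraries are also labelled as erythroblasts, but the summed level of 7 erythroid markers was 270.2 to 350 CPM there, below the 495 to 1046 CPM of S0-Low, and 7 neutrophil markers summed to 3160 to 5738 CPM. In S0-Low the neutrophil markers summed to 327 to 747 CPM and 9 macrophage and monocyte markers to 47.4 to 110.2 CPM. In S3 these sums were 0.057 to 2.30 and 0.057 to 4.28 CPM. There 4 of the 7 neutrophil markers (Elane, Ngp, Camp and S100a8) and 8 of the 9 macrophage and monocyte markers, Csf1r and Adgre1 among them, had 3 counts or fewer in every library. Their part in the results was not tested.

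For the members, replicate 3 stood apart. Over 9 members with counts and 6 groups, replicate 3 was the highest of the 3 libraries in 41 of 54 cases (75.9%), against 33.3% of the same cases over all tested genes. It was highest in 6 of 6 groups for Bnip3l, Optn, Ulk1 and Gabarapl2. Leaving out all libraries numbered 3 was an alternative chosen after seeing the data. For the S3 to S0-Low comparison below it gave the same 5 members as all libraries and added Optn (log2 fold change 1.88 ± 0.28 SE, adjusted p = 0.000786). Over the alternatives for Optn, adjusted p lay between 5.85e-05 and 0.485. In S3 against S2 the same setting also called a larger share of all tested genes than all libraries did, as given below.

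The annotated start regions of 4 members that rose, and of Ulk2, the relative of Ulk1, which was not called, are shown. Where this nascent RNA begins was not measured, and counts per gene do not tell alternative starts apart. Each is 300 bases from RefSeq (GRCm38.p6), 250 before and 50 after the annotated start, read along the gene's own strand. Of the 10 members, 9 had an entry, Bnip3l had none, and Atg4a had 2. Capitals mark matches on either strand to the CACCC or GC box letters CCNCNCCC, bound by KLF and SP factors, or to the GATA letters AGATAA, also with T as the first letter or G as the last, bound by GATA factors.
Ulk1 (chr5:110810032-110810331, minus strand): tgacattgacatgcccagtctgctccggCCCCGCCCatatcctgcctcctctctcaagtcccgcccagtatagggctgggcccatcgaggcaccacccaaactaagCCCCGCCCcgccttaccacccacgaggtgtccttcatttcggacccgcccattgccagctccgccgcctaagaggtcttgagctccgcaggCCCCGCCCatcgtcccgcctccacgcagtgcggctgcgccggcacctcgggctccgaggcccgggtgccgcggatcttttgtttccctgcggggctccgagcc
Ulk2 (chr11:61855043-61855342, minus strand): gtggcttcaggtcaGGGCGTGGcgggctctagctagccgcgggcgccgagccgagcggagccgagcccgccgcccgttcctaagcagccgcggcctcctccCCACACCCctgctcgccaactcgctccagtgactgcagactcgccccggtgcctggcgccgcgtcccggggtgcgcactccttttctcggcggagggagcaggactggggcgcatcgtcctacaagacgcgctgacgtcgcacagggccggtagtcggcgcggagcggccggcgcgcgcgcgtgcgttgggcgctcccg
Foxo3 (chr10:42276646-42276945, minus strand): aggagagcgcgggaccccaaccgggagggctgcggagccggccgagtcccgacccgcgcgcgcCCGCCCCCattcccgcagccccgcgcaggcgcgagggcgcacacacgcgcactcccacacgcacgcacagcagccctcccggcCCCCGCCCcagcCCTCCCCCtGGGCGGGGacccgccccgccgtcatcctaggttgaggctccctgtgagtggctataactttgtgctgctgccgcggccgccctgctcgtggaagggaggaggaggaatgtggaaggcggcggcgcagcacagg
Gabarapl2 (chr8:111940453-111940752, plus strand): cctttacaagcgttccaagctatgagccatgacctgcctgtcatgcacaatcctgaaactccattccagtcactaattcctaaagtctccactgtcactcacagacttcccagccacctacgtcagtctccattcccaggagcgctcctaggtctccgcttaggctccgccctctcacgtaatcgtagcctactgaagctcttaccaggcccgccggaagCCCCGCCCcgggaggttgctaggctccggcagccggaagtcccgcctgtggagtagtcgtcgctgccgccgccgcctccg
Atg4a, first start (chrX:140953595-140953894, plus strand): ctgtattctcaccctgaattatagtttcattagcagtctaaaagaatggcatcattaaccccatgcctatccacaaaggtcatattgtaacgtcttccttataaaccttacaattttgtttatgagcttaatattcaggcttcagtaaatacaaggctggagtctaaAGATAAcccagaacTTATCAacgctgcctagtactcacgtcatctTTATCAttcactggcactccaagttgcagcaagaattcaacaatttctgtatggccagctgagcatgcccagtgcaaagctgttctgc
Atg4a, second start (chrX:140956657-140956956, plus strand): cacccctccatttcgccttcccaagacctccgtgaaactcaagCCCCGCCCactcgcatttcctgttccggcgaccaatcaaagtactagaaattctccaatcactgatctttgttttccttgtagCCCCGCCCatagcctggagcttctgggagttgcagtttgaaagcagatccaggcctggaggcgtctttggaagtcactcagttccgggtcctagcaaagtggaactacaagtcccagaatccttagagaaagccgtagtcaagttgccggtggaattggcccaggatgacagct

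The Foxo3 window was 75% G and C with 4 CACCC matches, Ulk1 68% with 3, Ulk2 74.7% with 2 and Gabarapl2 60% with 1, whereas the median over all 32851 windows of the same length was 52.7%. Members that were not called also held these letters: Bnip3 had the most matches of any member with a window (6, at 71.7% G and C) and Optn had 3 (52.7%). Map1lc3b had 1 and Atg7 had 0. CCNCNCCC occurs in 49.5% of all these windows. The GATA letters occur in 29.8% of all windows and, among the members, in the first Atg4a window, which was 40% G and C and held 3 matches. The second Atg4a window held 2 CACCC matches. GTAAACA, the letters bound by FOXO factors, occur in 3.65% of all windows and in those of 0 members. TCACGTG, the CLEAR letters bound by TFEB-type factors, occur in 3.77% of all windows and in that of Atg7 (1 match). The Atg7 window (chr6:114670846-114671145, plus strand) lies inside the gene, downstream of its listed gene start at 114643127. A match is a description of letters, and binding was not measured here.

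From S0-Low to S3, 5 of the 9 tested members rose and 0 fell: Bnip3l, Ulk1, Gabarapl2, Atg4a and Foxo3 (edgeR's quasi-likelihood test on the 15 erythroid libraries, Benjamini-Hochberg adjusted p under 0.05 over 16555 genes). Over all tested genes 13.4% were called higher and 22.4% lower. The median log2 fold change was 2.68 over the tested members and -0.54 over all tested genes. For the same 5 members every S3 library lay above every S0-Low library, an order seen for 16.6% of all tested genes, while the opposite order held for 25.9% of genes and 0 members. In bulk populations, a change in the share of cells that transcribe a gene and a change in RNA per cell cannot be told apart.

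**Figure D1:**
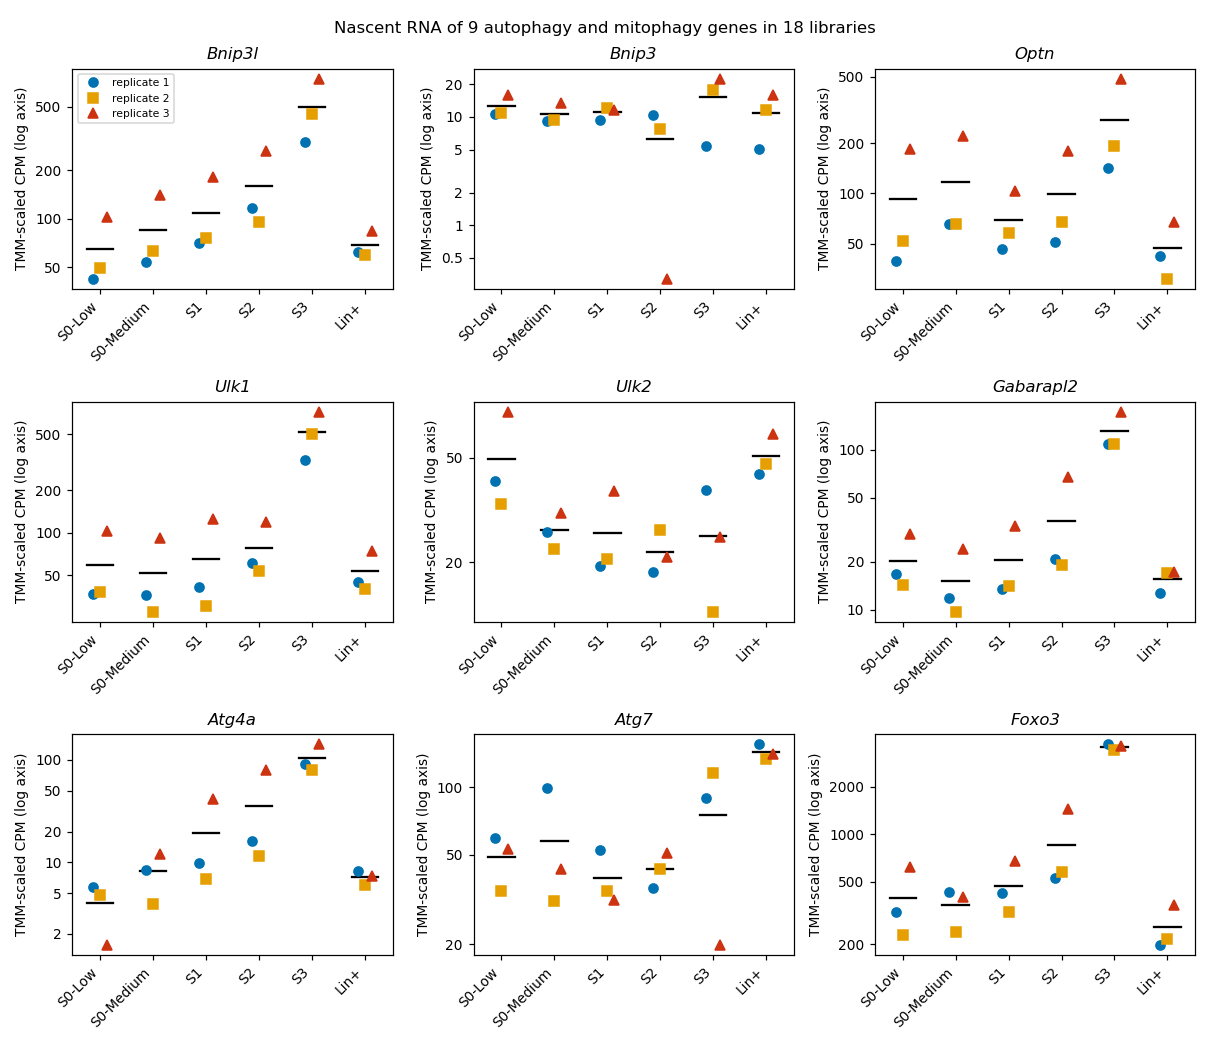
TMM-scaled CPM (log axis) of the 9 members with counts in each of the 18 libraries, by group, with 1 marker per library (shape and colour give the replicate number) and a bar at the mean of 3. Bnip3l, Ulk1, Gabarapl2, Atg4a and Foxo3 have all S3 libraries above all S0-Low libraries, whereas Bnip3, Optn, Ulk2 and Atg7 overlap.

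Bnip3l (ENSMUSG00000022051, chr14:66985238-67008877, GRCm38.p6) encodes NIX, the outer mitochondrial membrane receptor named above. Its nascent RNA was at 42.4, 49.2 and 102.0 CPM in the S0-Low libraries (replicates 1 to 3), 54.0, 62.7 and 139.8 in S0-Medium, 70.6, 75.6 and 181.7 in S1, 117.5, 95.9 and 263.7 in S2 and 302.4, 448.0 and 747.4 in S3. The lowest S3 library was above the highest library of every other group, and the means stood in the order S0-Low (64.5 ± 32.6), Lin+ (68.5 ± 13.3), S0-Medium (85.5 ± 47.2), S1 (109 ± 62.8), S2 (159 ± 91.3) and S3 (499 ± 227). Neighbouring erythroid populations in this order were not called different in the fit used throughout, and the step from S2 to S3, where other settings did call Bnip3l, is described below. Against S0-Low the S3 level had a log2 fold change of 2.95 ± 0.57 (SE; adjusted p = 0.00113).

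Bnip3 (ENSMUSG00000078566, chr7:138890836-138909506, minus strand) encodes the close relative of NIX, which also binds ATG8 proteins from the mitochondrial surface. Its levels were 10.7, 10.9 and 16.1 CPM in S0-Low and 5.4, 17.7 and 22.6 in S3, and the groups overlapped. The log2 fold change of 0.28 ± 0.86 was not called (adjusted p = 0.818) and was -0.63 with library totals. Library S2 replicate 3 held 7 counts of Bnip3 (0.32 CPM) where the other S2 libraries held 248 and 292 (10.5 and 7.8 CPM). Means over the groups lay between 6.20 ± 5.27 CPM in S2 and 15.3 ± 8.85 in S3.

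Within each library, the log2 ratio of Bnip3l to Bnip3 counts was 1.99, 2.17 and 2.66 in S0-Low and 5.78, 4.66 and 5.04 in S3. The difference of the means was 2.89, and every S3 library lay above every S0-Low library. The two-sided exact permutation p was 0.1, the smallest that 3 libraries against 3 allow, and 0.1 after adjustment over the 2 ratios tested. This ratio needs no scaling between libraries. In S2 it was 3.48, 3.62 and 9.58, the last being the library with 7 Bnip3 counts.

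Optn (ENSMUSG00000026672, chr2:5020521-5064399, minus strand) encodes optineurin, a soluble receptor that links ubiquitin-marked mitochondria to ATG8 proteins. It was at 39.3, 51.6 and 185.4 CPM in S0-Low and 142.1, 193.3 and 486.0 in S3. The S0-Low replicate 3 library lay above the lowest S3 library, so the groups overlapped. The log2 fold change was 1.57 ± 0.70 (adjusted p = 0.0867). Without S0-Low replicate 3 it was 2.55 ± 0.75 (adjusted p = 0.0196), within a range of adjusted p from 5.85e-05 to 0.485 over the alternatives.

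Ulk1 (ENSMUSG00000029512, chr5:110784489-110810120, minus strand) encodes a kinase that starts autophagosome formation. It was at 36.8, 38.0 and 102.3 CPM in S0-Low, 36.1, 27.6 and 91.5 in S0-Medium, 41.0, 30.1 and 124.6 in S1, 61.2, 53.9 and 118.0 in S2 and 325.7, 502.6 and 722.4 in S3. Levels in the 4 earlier populations overlapped, and every S3 library lay above them all. Against S0-Low, S3 had a log2 fold change of 3.13 ± 0.64 (adjusted p = 0.00175).

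Ulk2 (ENSMUSG00000004798, chr11:61775598-61855334, minus strand) encodes the related kinase. Its levels were 40.8, 33.2 and 75.3 CPM in S0-Low, 26.1, 22.4 and 30.8 in S0-Medium and 37.7, 12.9 and 25.0 in S3. Every S0-Medium library was below every S0-Low library, an order not counted over all tested genes for this step. Neither that step (log2 fold change -0.91 ± 0.48, adjusted p = 1) nor S3 against S0-Low (-0.98 ± 0.48, adjusted p = 0.118) was called. With library totals the second value was -1.82 ± 0.53 (adjusted p = 0.013), and without S3 replicate 1 it was -1.40 ± 0.51 (adjusted p = 0.0496). Over all alternatives for this value, adjusted p lay between 0.013 and 0.354.

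The log2 ratio of Ulk1 to Ulk2 counts in the same library was -0.15, 0.20 and 0.44 in S0-Low, 1.74, 1.02 and 2.50 in S2 and 3.11, 5.28 and 4.85 in S3. Its mean was higher in each later erythroid population, and the S3 libraries lay above all others. From S0-Low to S3 the difference was 4.25 (two-sided exact permutation p = 0.1, the smallest possible). In Lin+ the ratio was 0.05, -0.26 and 0.27, overlapping S0-Low.

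**Figure D2:**
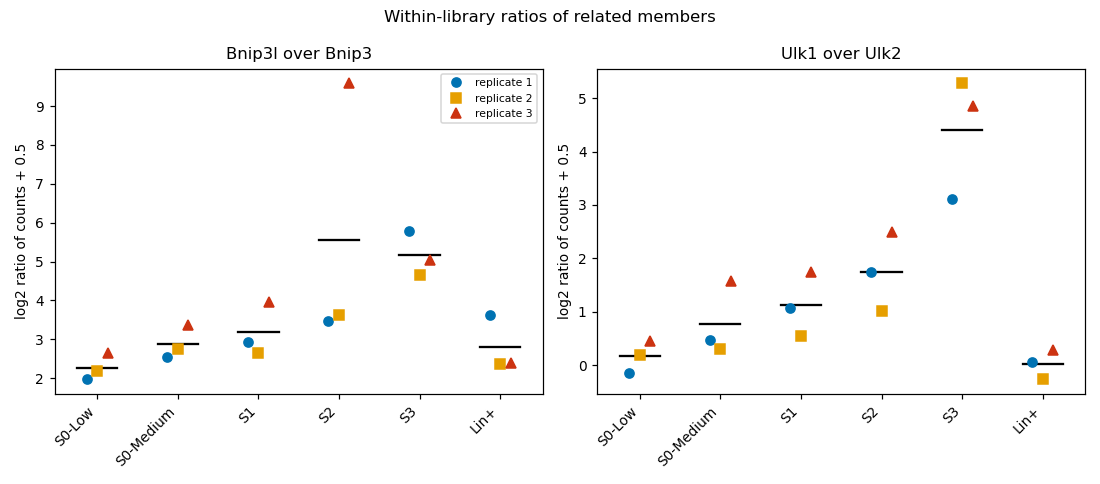
Log2 ratio of counts (each plus 0.5) of Bnip3l over Bnip3 and of Ulk1 over Ulk2 within each of the 18 libraries, by group, with a bar at the mean of 3 and the replicate number given by shape and colour. All 3 S3 libraries lie above all 3 S0-Low libraries in both panels, and the S2 value of 9.58 is the library with 7 Bnip3 counts.

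Map1lc3b (ENSMUSG00000031812, chr8:121590438-121598760, plus strand) encodes LC3B, the ATG8 protein most often used as a marker of autophagosomes. It was listed at 0 in all 18 libraries, which for counting error alone allows up to 0.249 CPM in the shallowest, and it was not tested. A related gene, Gm6055, which RefSeq lists as a Map1lc3 pseudogene, was looked up after this was seen. It shared 32.9% of the 31-base stretches of Map1lc3b transcripts and held between 6 and 241 counts in the S3 libraries and between 17 and 44 in the S0-Low libraries. The S3 mean for Gm6055 was 7.14 ± 6.70 CPM and that of S0-Low 1.03 ± 0.43 (log2 fold change 2.80 ± 1.24, adjusted p = 0.0856). Reads within the shared stretches cannot be told apart between these genes. Their part in the 0 counts was not tested, and the level of Map1lc3b is unknown here.

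Gabarapl2 (ENSMUSG00000031950, chr8:111940703-111952915, plus strand), also called GATE-16, encodes an ATG8 protein of the GABARAP family. It was at 16.7, 14.4 and 29.8 CPM in S0-Low, 11.9, 9.8 and 23.9 in S0-Medium, 13.55, 14.2 and 33.4 in S1, 20.9, 18.95 and 67.9 in S2 and 108.9, 108.6 and 173.1 in S3. No library of another group reached the S3 range. Relative to S0-Low its log2 fold change in S3 was 2.68 ± 0.59 (adjusted p = 0.0028).

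Atg4a (ENSMUSG00000079418, chrX:140953845-141164194, plus strand) encodes a protease that trims ATG8 proteins before they are joined to lipid. Its levels were 5.7, 4.8 and 1.6 CPM in S0-Low, 8.4, 3.9 and 12.1 in S0-Medium, 9.8, 6.9 and 41.5 in S1, 16.1, 11.5 and 80.0 in S2 and 91.6, 79.1 and 141.8 in S3. Replicate 3 was the lowest library in S0-Low, with 19 counts, and the highest in the 4 later populations, and in S2 it lay just above the lowest S3 library. With a log2 fold change of 4.68 ± 0.91 (adjusted p = 0.00118), Atg4a had the largest rise of the members from S0-Low to S3. The gene overlaps Psmd10, a proteasome gene on the other strand, which was at 10.5 ± 8.03 CPM in S0-Low and 37.1 ± 30.8 in S3 (log2 fold change 1.82 ± 0.99, adjusted p = 0.158). Of the 31-base stretches of Atg4a transcripts, 18.2% also occur in transcripts annotated to Syt6.

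Atg7 (ENSMUSG00000030314, chr6:114643127-114860604, plus strand) encodes the enzyme that activates ATG8 proteins and ATG12 for conjugation. It was at 59.7, 34.5 and 53.0 CPM in S0-Low and 89.8, 115.7 and 19.9 in S3. The S3 libraries fell on both sides of S0-Low, and the log2 fold change of 0.61 ± 0.55 was not called (adjusted p = 0.393).

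Foxo3 (ENSMUSG00000048756, chr10:42181845-42276695, minus strand) encodes a forkhead factor that is known to activate autophagy genes and antioxidant genes in red cell precursors. It was at 322.3, 230.0 and 620.7 CPM in S0-Low, 431.5, 240.0 and 397.0 in S0-Medium, 420.9, 322.6 and 672.7 in S1, 529.7, 573.9 and 1440.2 in S2 and 3719.5, 3417.2 and 3628.8 in S3. The S3 libraries lay close together (3589 ± 155 CPM) and above every other library. From S0-Low to S3 the log2 fold change was 3.20 ± 0.48 (adjusted p = 0.00017), the smallest adjusted p among the members.

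**Figure D3:**
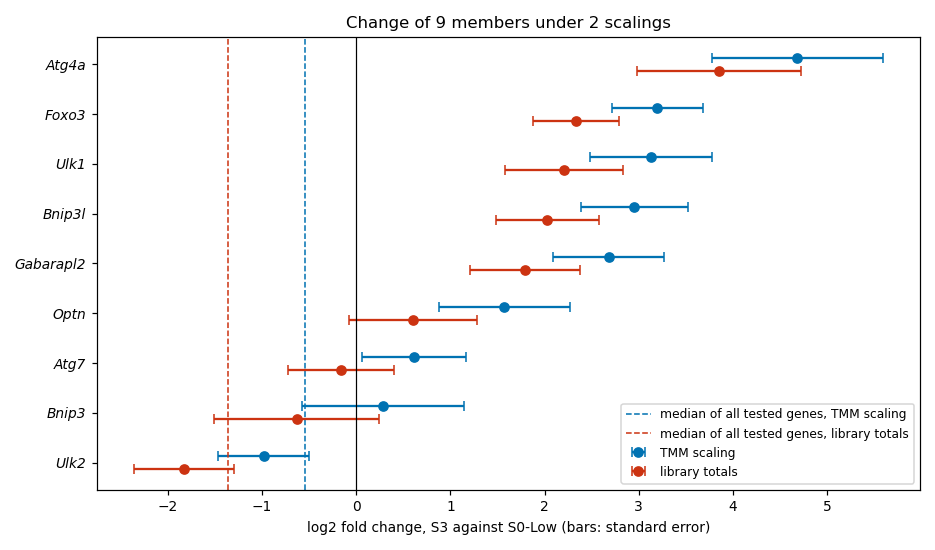
Log2 fold change (± SE) of the 9 tested members in S3 against S0-Low with TMM scaling and with library totals, from the fit to 15 libraries. Dashed lines give the median over all tested genes, -0.54 with TMM and -1.36 with library totals, and the signs of Bnip3 and Atg7 differ between the scalings.

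Scaling moved each value by a similar amount. With library totals the median of all tested genes was -1.36, 44.6% of all tested genes were called in either direction, and the 5 called members stayed called with log2 fold changes of 2.03 (Bnip3l), 2.21 (Ulk1), 1.79 (Gabarapl2), 3.85 (Atg4a) and 2.33 (Foxo3). Relative to the median of all tested genes, these 5 lay 3.22 to 5.22 higher with TMM and 3.15 to 5.21 higher with library totals. Library totals also called Ulk2 lower (-1.82, adjusted p = 0.013), and Ulk2 lay below that median under both scalings, at -0.44 and -0.47 relative to it.

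At the first 3 steps, S0-Low to S0-Medium, S0-Medium to S1 and S1 to S2, 0 of the 9 tested members were called, as were 0% of all tested genes at each step. No member (0 of 9) reached an unadjusted p under 0.05 at any of these steps in edgeR, where 3.26%, 6.86% and 4.03% of all tested genes did. DESeq2 also called 0 members at each, with 0.278%, 2.42% and 0.912% of all genes called at the 3 steps. Member log2 fold changes lay between -0.91 and 1.00 at the first step, between -0.77 and 1.25 at the second and between -0.83 and 0.88 at the third, and Atg4a had the highest value at each. Over all 5 erythroid populations at once, an F test called Bnip3l, Ulk1, Gabarapl2, Atg4a and Foxo3 (adjusted p between 8.28e-05 and 0.00302), against a background of 24.6% of genes.

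From S2 to S3, Ulk1 (log2 fold change 2.74 ± 0.63, adjusted p = 0.0141) and Foxo3 (2.09 ± 0.46, adjusted p = 0.0114) rose, and 0 members fell, where 3.26% of all tested genes were called higher and 6.09% lower. Bnip3l (1.66 ± 0.54, adjusted p = 0.0679) and Gabarapl2 (1.86 ± 0.57, adjusted p = 0.0518) did not pass. Their S3 libraries all lay above their S2 libraries, an order not counted over all tested genes for this step. Same-numbered S2 and S3 libraries deviated together from their group means, with a correlation across genes of 0.171 to 0.315. With the replicate number as a block, 18.6% of all tested genes were called in either direction, against 9.35% without it, and 5 members were called: Bnip3l (1.70, adjusted p = 0.000105), Optn (1.49, adjusted p = 0.000581), Ulk1 (2.79, adjusted p = 2.99e-05), Gabarapl2 (2.08, adjusted p = 0.000481) and Foxo3 (2.25, adjusted p = 0.00023). Bnip3l was also called without the block by DESeq2 (adjusted p = 0.0201) and when all libraries numbered 3 were left out (adjusted p = 0.0013). It was called in 5 of the 16 other alternatives, the block included, with adjusted p between 0.000105 and 0.231. Gabarapl2 was called in 8 of the same 16, with adjusted p between 0.000481 and 0.201. Without the block, leaving out S2 replicate 1 or S2 replicate 2 left 0 members called (3.95% and 3.94% of all tested genes). The log2 fold changes were then 2.58 and 2.52 for Ulk1 and 1.83 and 1.86 for Foxo3. Leaving out S2 replicate 3 gave 5 members (13.4% of genes), with Gabarapl2 at 2.70. These differed from the 5 called with the block by Atg4a in place of Optn. Atg4a was at 1.54 ± 0.80 with all libraries (adjusted p = 0.227) and then at 2.91 (adjusted p = 0.032).

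The rise from S2 to S3 was set against the change from S0-Low to S2 in a test of the difference itself. It called 0 of 9 members, with 0.266% of all tested genes called. Ulk1 came nearest, with a difference of 2.35 ± 1.08 on the log2 scale (unadjusted p = 0.0459, adjusted p = 0.358), and DESeq2, which called 5.94% of all genes, also called 0 members. With the replicate block, which called 2.89% of all tested genes, Ulk1 was called. Same-numbered libraries deviated together between S2 and S3 and between S0-Low and S2 (correlation 0.189 to 0.243), but less so between S0-Low and S3 (0.084 to 0.134). The other 18 alternatives called 0 members, so a larger rise at the last step than before it was called for Ulk1 with the block alone and for 0 of the other members.

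Lin+ cells served as a population outside the erythroid series. Of the 9 tested members, 0 were called in Lin+ against S0-Low by edgeR in the fit to 18 libraries, with 0.715% of all tested genes called in either direction, and 0 by DESeq2, with 3.38%. Atg7 came nearest, at 155.4, 133.3 and 140.5 CPM in Lin+, above every erythroid library of this gene, with a log2 fold change of 1.54 ± 0.51 over S0-Low (unadjusted p = 0.00775, adjusted p = 0.227). It was the single member of the 9 tested with an unadjusted p under 0.05, a cut that 9.85% of all tested genes passed.

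Against S3, 6 of the 9 tested members were lower in Lin+ and 0 were higher, while 14.1% of all tested genes were called lower and 28.2% higher. The log2 fold changes in Lin+ against S3 were -3.81 ± 0.48 for Foxo3, -3.85 ± 0.83 for Atg4a, -3.28 ± 0.63 for Ulk1, -3.05 ± 0.57 for Gabarapl2, -2.87 ± 0.54 for Bnip3l and -2.54 ± 0.70 for Optn (adjusted p = 0.00778 for Optn and at most 0.00139 for the others). Optn was at 42.3, 30.9 and 67.6 CPM in Lin+, below its lowest S3 library. Ulk2 and Atg7 were not called (adjusted p = 0.0739 and 0.148). Both were higher in every Lin+ library than in any S3 library, an order not counted over all tested genes for these groups. With library totals Optn lost its call (-1.66, adjusted p = 0.0517), whereas Ulk2 (1.79, adjusted p = 0.00711) and Atg7 (1.66, adjusted p = 0.0159) were called higher in Lin+. Over the alternatives, adjusted p lay between 4.85e-06 and 0.0517 for Optn, between 0.00711 and 0.194 for Ulk2, with 5 of 15 called, and between 0.0159 and 0.39 for Atg7, with 1 of 15 called. This comparison shares its S3 libraries with that of S3 and S0-Low.

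A wider list of 79 autophagy and mitophagy genes, none of them a member, gave context. Of these, 76 had an identifier and 75 were tested. In S3 against S0-Low, 29 rose, 10 fell and 36 were not called, with a median log2 fold change of 0.59 against -0.54 over all tested genes. Over all 16555 tested genes, 2220 were higher (13.4%) and 3712 lower (22.4%). With library totals, 11 of the list were higher and 21 lower, beside 1156 higher and 6223 lower over all genes, so both splits depend on the scaling; the list's median lay 1.13 above that of all genes with TMM and 1.17 above it with library totals. Leaving out S0-Low replicate 1, S0-Low replicate 2 or S3 replicate 3 gave 16 higher genes each.

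By role, 6 of 10 tested genes of the initiation complex, which acts with ULK1, rose and 1 fell, and 6 of 8 other cargo receptors rose and 1 fell. Of the other ATG8 proteins 2 of 3 rose, of the conjugation machinery 3 of 9 rose and 2 fell, and of the lysosome and fusion genes 4 of 12 rose and 1 fell. The PI3-kinase complex, which makes the lipid signal on the growing membrane, had 2 higher and 3 lower of 8. Of 10 other mitophagy genes tested 2 rose, and the median log2 fold change of this list, -0.63, lay below that of all tested genes (-0.54). Transcriptional regulators had 1 higher and 1 lower of 4, and nutrient and energy sensing genes 3 higher and 0 lower of 11.

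The 4 largest rises on the list were those of Sesn2, Ctsb, Ncoa4 and Calcoco1. Sesn2, a stress-induced inhibitor of mTORC1, went from 17.97 ± 3.67 CPM in S0-Low to 476 ± 68.2 in S3 (log2 fold change 4.73 ± 0.75, adjusted p = 0.000251). Ctsb, the lysosomal protease cathepsin B, went from 43.1 ± 2.35 to 1106 ± 177 CPM (4.68 ± 0.53, adjusted p = 1.83e-05). Ncoa4, the receptor that takes ferritin to the lysosome, went from 72.2 ± 12.1 to 673 ± 323 CPM (3.22 ± 0.46, adjusted p = 0.000121). Calcoco1, a receptor for endoplasmic reticulum and Golgi cargo, went from 19.6 ± 7.59 to 173 ± 131 CPM (3.14 ± 1.00, adjusted p = 0.024).

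The 4 largest falls were those of Atg9b, Retreg1, Atg10 and Ctsl. Atg9b, a lipid scramblase of early autophagosomes, was at 15.1 ± 11.4 CPM in S0-Low and at 0 counts in each S3 library, which is at least 84.8-fold lower when S3 is set at 3 counts per library (adjusted p = 0.00129). Retreg1, a receptor for endoplasmic reticulum, was at 13.9 ± 6.72 CPM and at 0 counts, at least 77.8-fold lower (adjusted p = 0.000545). Atg10, the enzyme that joins ATG12 to ATG5, went from 36.3 ± 19.6 to 0.33 ± 0.29 CPM (log2 fold change -6.79 ± 1.12, adjusted p = 0.000351), and Ctsl, the protease cathepsin L, from 24.4 ± 13.6 to 0.84 ± 0.73 CPM (-4.84 ± 1.01, adjusted p = 0.002). All 4 were higher in Lin+ than in S3 (adjusted p at most 0.00217). The neutrophil and macrophage markers moved the same way, with summed levels of 327 to 747 and 47.4 to 110.2 CPM in S0-Low and at most 2.30 and 4.28 CPM in S3, and their part in these falls was not tested.

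**Figure D4:**
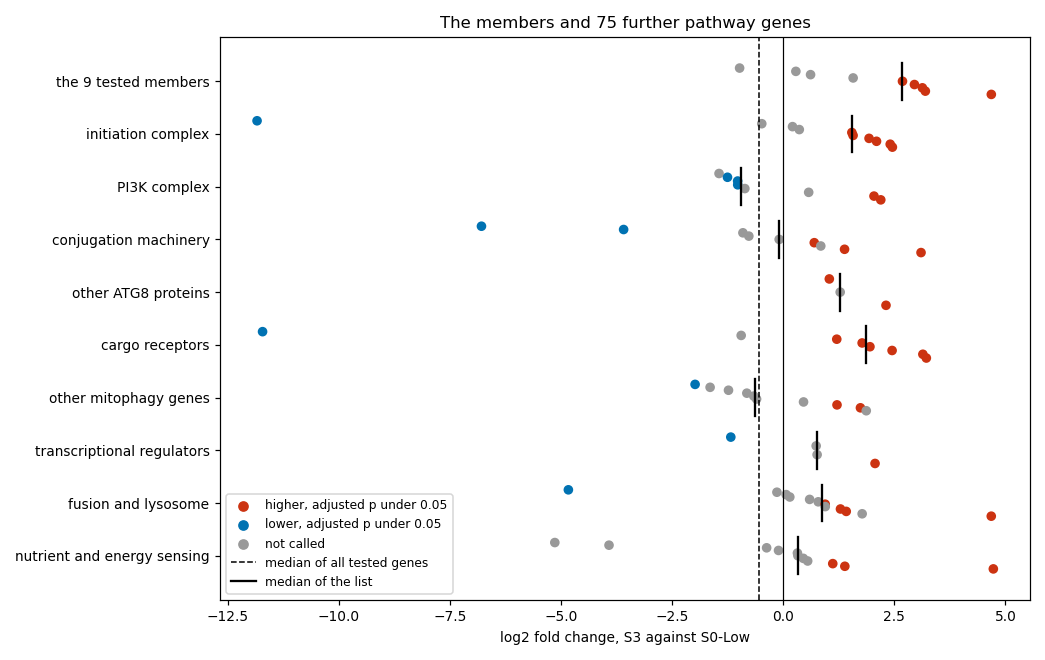
Log2 fold change (TMM scaling, S3 against S0-Low) of the 9 tested members and of 75 further pathway genes by role, each point a gene, coloured by whether the adjusted p was under 0.05 and in which direction. Short bars give each list's median and the dashed line the median of all tested genes (-0.54); the points near -12 are Atg9b and Retreg1, which are at 0 counts in S3 and have no exact fold.

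The genes whose profile over the 5 erythroid populations lay closest to that of Bnip3l, Foxo3 and Ulk1 were found among 14494 tested genes with a symbol, by the root mean square difference of centred mean log2(CPM + 0.5), over 5 population means. Closest to Bnip3l were Tuba1c (0.059), Add1 (0.062) and Pef1 (0.069). Closest to Foxo3 were Zfand6 (0.049), Aff1 (0.076) and Rbm38 (0.077), and closest to Ulk1 were Ncoa4 (0.051), 4930550C14Rik (0.054) and Fcho2 (0.091). Among the members themselves, Foxo3 ranked 34 from Ulk1 and Gabarapl2 ranked 44, with differences of 0.21 and 0.23. Bnip3l ranked 223 and Atg4a 1072 from Ulk1, and Ulk2 ranked 6805 with a difference of 1.47. From Bnip3l the nearest member was Foxo3 at rank 311, with Ulk1 at 702 and Atg4a at 1534. These 5 means share their libraries, so the ranks are a description of likeness in these libraries.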

How the data were processed

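Nascent RNA was measured in 18 libraries, grouped by the population and replicate number in the labels. The authors quantified reads with Kallisto 0.43.0 (GRCm38 in the submitters' processing notes) and deposited whole-number counts per gene, neither normalized nor pooled. The transcript set, the treatment of introns and the use of strand in counting are not given in the sources used here. Kallisto divides reads that match several transcripts, so near-identical copies share counts.

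The 15 erythroid libraries entered one edgeR 4.0.16 model (R 4.3.3) with population as its factor, TMM scaling and filterByExpr (16555 genes). Comparisons used its quasi-likelihood test (two-sided), and p-values were adjusted by Benjamini and Hochberg's method over all tested genes (threshold 0.05). The common biological coefficient of variation was 0.795. All 18 libraries entered the Lin+ comparisons (17755 genes). The study's methods name DESeq2, and DESeq2 1.42.0 was an alternative. Within-library ratios used counts plus 0.5 and an exact permutation test. Coordinates and promoters are RefSeq's (GRCm38.p6). This model was checked on simulated counts with known changes.

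The members and gene lists were chosen with earlier results of these data known. Named genes were all members, the 4 largest rises and 4 largest falls among called genes of the wider list, the 3 nearest profiles of Bnip3l, Foxo3 and Ulk1, and 3 stage genes. Results for 1 gene of the wider list are not reported here. Other names were chosen after their values were seen: Gm6055, Psmd10 and Syt6. Pairing by replicate number was judged from correlations of deviations from group means, every pair above 0.1: it held for each step between neighbouring erythroid populations and for Lin+ with S0-Low, but not for S3 with S0-Low (lowest r 0.084) or with Lin+ (0.097). Alternatives were DESeq2, RLE factors, library totals, no filter, at least 10 counts in every library, the replicate block, robust fitting, globin genes left out, other sets of libraries, other pseudocounts and each replicate left out.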

Additional observations from a re-analysis of the deposited data

How the results depend on the processing

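The 5 members called higher in S3 than in S0-Low were called in each of 17 alternatives, which gave 5 or 6 members. The share of all tested genes called was 35.8% in the fit used throughout (5 members). It was 21.6% without a filter (6 members) and 44.6% with library totals (6 members). With the replicate number as a block, although those numbers do not pair S3 with S0-Low, Optn was added (6 members, adjusted p = 5.85e-05). The block called 42.4% of all tested genes. The count over the 5 populations was 5 or 6, with 24.6% of all tested genes called in the fit used throughout and 33.1% with the block (6 members). For Lin+ against S3 the count was 6 (42.2% of all tested genes) or 7. The block gave 7 (48.1% of genes), with Ulk2 added. With library totals (47.7% of genes) the members differed: Optn was not called and Ulk2 and Atg7 were called higher. The first 3 steps gave 0 members under every alternative.

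The count for S3 against S2 (2 members) depended on the processing, as did the share of all tested genes called in either direction (9.35%): 4 members with DESeq2 (20.1% of genes), 5 without a filter (8.81%), 5 with the replicate block (18.6%), 4 with all 18 libraries (11.4%), 1 with only the 6 libraries compared (0.823%), 0 to 5 with each replicate left out (3.94% to 13.4%), and 6 with all libraries numbered 3 left out (18.9%), which was added after seeing the data. The test of the last step against earlier change gave 1 member with the block, and Lin+ against S0-Low gave 1 (Atg7) with only the 6 libraries compared, where 3.6% of all genes were called. The block changed no other count by over 1.5 times. Of the pathway genes, 11 were higher and 21 lower with library totals, 18 were higher with only the 6 libraries compared, and 16 to 30 were higher with each replicate left out.

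Signs turned for members that were not called. With library totals the log2 fold change was -0.63 for Bnip3 and -0.16 for Atg7 in S3 against S0-Low, -0.29 for Ulk2 in S3 against S2 and 0.38 for Bnip3 in Lin+ against S3. With each replicate left out it ranged from -0.12 to 0.67 for Bnip3 in S3 against S0-Low and from -0.22 to 0.52 for Ulk2 in S3 against S2. The causes were not tested. Where a replicate is left out, its group's spread is assumed to be like that of the other groups.

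The ratio differences lay between 2.58 and 3.14 (Bnip3l to Bnip3) and between 3.82 and 4.90 (Ulk1 to Ulk2) over 9 alternatives. The exact sign-flip p by same-numbered pair was 0.25, the smallest possible, although those numbers do not pair S3 with S0-Low. The planned ratio of Map1lc3b to Gabarapl2 has no value because Map1lc3b is listed at 0. The lowest counts of a tested member were 7 for Bnip3 in S2 replicate 3, a library of 25303249 counts, and 19 for Atg4a in S0-Low replicate 3, the smallest library (9452476 counts). S2 replicate 1, with a total of 25422188, held 248 counts of Bnip3. The cause of the low count was not tested.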
